A study of Homo sapiens with 6 samples.

Results

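The BCL2 family regulators of apoptosis BCL2, BCL2L1, MCL1, BAX, BAK1, BID, BCL2L11, BBC3, PMAIP1 and BIK were followed in sorted tumour cells. They were taken by gene symbol, and all 10 were found among the 15024 genes of the deposited table and passed the filter on low values. The cells were MDA-MB-231, an established triple-negative breast cancer line, carrying the non-targeting guide sgNT and kept for 14 days in 10 µM forskolin, an activator of adenylyl cyclase. CD44-positive cells were sorted into CD104high, called hybrid epithelial-mesenchymal by the design text, and CD104-/low (CD104low here), called mesenchymal. CD104 is the integrin beta 4 chain. Each group had 3 libraries of total RNA, labelled biological replicates 1 to 3. All 6 libraries shared the line, the guide and forskolin, so the values compare gates within treated cells of 1 line and not treated with untreated cells. MLL3-mutant cells were not analysed here.

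The family sets whether a cell opens the outer membrane of its mitochondria. BCL2, BCL-XL (the product of BCL2L1) and MCL1 are guardians that keep the pore-forming effectors BAX and BAK (BAK1) in check. BH3-only proteins such as BID, BIM (BCL2L11), PUMA (BBC3), NOXA (PMAIP1) and BIK sense damage or lost growth signals, bind the guardians through a short helix, the BH3 domain, and in part activate the effectors directly. Open pores release cytochrome c, which drives the apoptosome and the caspases. Much of this control works on proteins and on splice forms, which gene-level read counts do not show.

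The BH3 helix is what the members have in common beyond their names, so its coding stretch is shown for each one. A GENCODE coding sequence of each gene was searched in frame for a leucine codon, any 3 codons, a glycine or alanine codon and an aspartate codon. Each of the 10 had exactly 1 match. The small residue was alanine in BBC3 and glycine in the others. Each run below holds the match with 3 codons on either side, 36 bases on GRCh38, written along the transcript from 5′ to 3′, with capitals for the leucine codon and for the glycine or alanine and aspartate codons.
BCL2, chr18:63318352-63318387, minus strand: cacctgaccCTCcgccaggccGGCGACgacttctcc
BCL2L1, chr20:31721925-31721960, minus strand: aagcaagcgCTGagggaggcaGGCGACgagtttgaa
MCL1, chr1:150578868-150578903, minus strand: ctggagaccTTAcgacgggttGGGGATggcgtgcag
BAX, chr19:48955778-48955813, plus strand: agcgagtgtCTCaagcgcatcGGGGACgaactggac
BAK1, chr6:33575390-33575425, minus strand: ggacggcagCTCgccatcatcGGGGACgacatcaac
BID, chr22:17739418-17739453, minus strand: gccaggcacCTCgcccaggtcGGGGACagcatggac
BCL2L11, chr2:111150094-111150129, plus strand: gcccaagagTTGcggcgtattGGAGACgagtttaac
BBC3, chr19:47226582-47226617, minus strand: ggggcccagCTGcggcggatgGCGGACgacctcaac
PMAIP1, chr18:59902664-59902699, plus strand: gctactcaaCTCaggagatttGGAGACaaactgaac
BIK, chr22:43127707-43127742, plus strand: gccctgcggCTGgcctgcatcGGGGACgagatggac

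BBC3 and BCL2L11, both BH3-only genes, were higher in CD104high cells, and the guardian gene BCL2 was lower. BBC3 was 1.77-fold higher (95% interval 1.39 to 2.25) and BCL2L11 1.22-fold higher (1.06 to 1.41), while BCL2 was 1.36-fold lower. The other 7 members did not pass the test, among them BCL2L1 and MCL1, the guardian genes with the highest levels. Of the 10 members, 2 were thus called higher, against 12.1% of all 14343 genes tested, and 1 lower, against 11.3%. Groups did not overlap for 4 members, against 41.2% of all genes tested. These shares lie near those of the whole table, so the counts say nothing particular to the family. The median log2 fold change of the members was 0.03, beside 0.01 for all genes tested. Calls are from limma with a Benjamini-Hochberg adjusted p under 0.05 over all genes. Each fold change was taken on log2(value + 1), where the added 1 dampens differences between libraries for scarce genes. A printed fold change of a scarce gene is still not a lower bound. For BIK the log2 fold change was 0.35 in limma and 0.26 in edgeR.

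**Figure D1:**
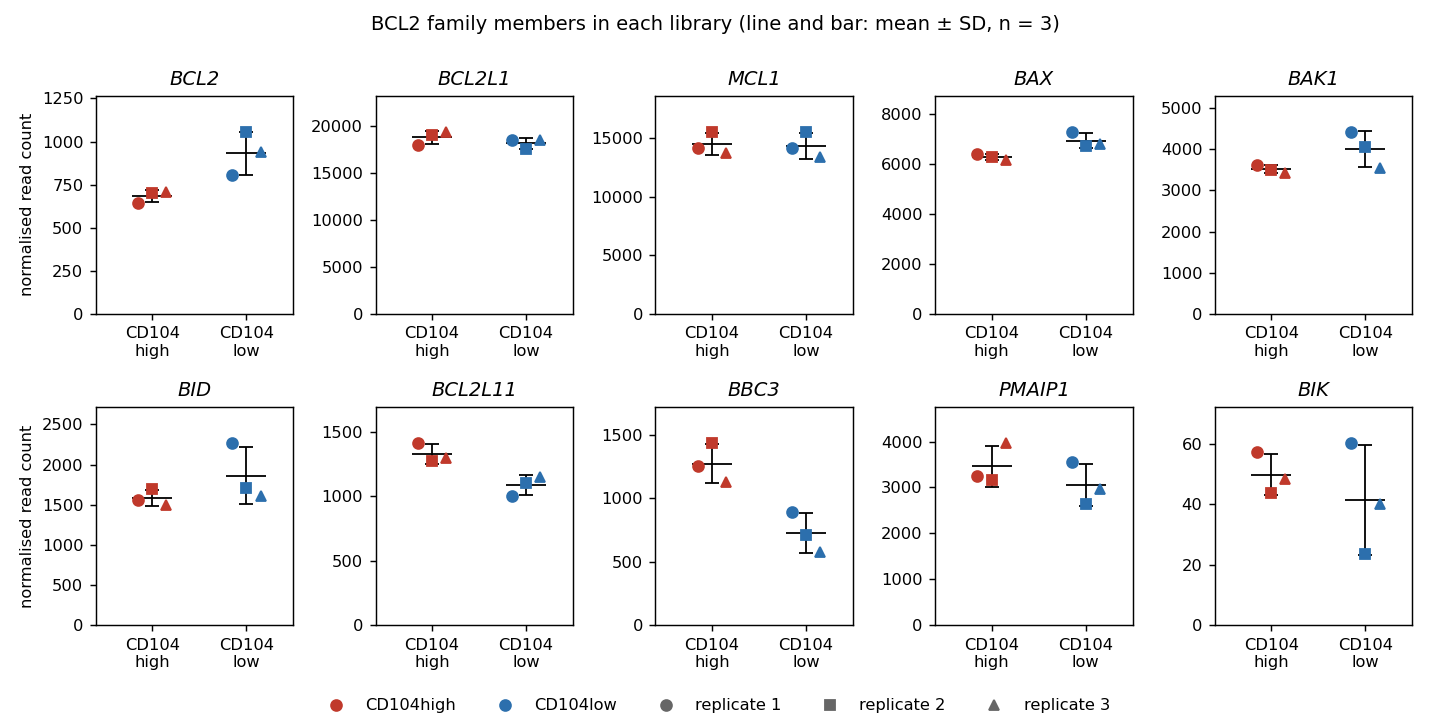
Normalised read count (y axis, from 0) of each BCL2 family member in the 3 CD104high (red) and 3 CD104low (blue) libraries, with symbols for the replicate number and black lines for the mean ± SD. All 3 CD104high values lie above all CD104low values for BBC3 and BCL2L11, and below them for BCL2 and BAX.

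Among the BH3-only genes, BBC3 encodes PUMA, which binds all main guardians. Its normalised read count was 1256, 1432 and 1123 in CD104high replicates 1 to 3, and 890, 711 and 578 in CD104low replicates 1 to 3. The lowest CD104high library was above the highest CD104low library, and CD104high was higher in 3 of 3 numbered pairs. The means were 1270 ± 155 and 726 ± 157 (SD, n = 3), a log2 fold change of 0.82 (SE 0.16, limma adjusted p = 0.00515). In RNA from bulk sorted cells, more expressing cells and more RNA per cell cannot be told apart. The authors' deposited table gives BBC3 a log2 fold change of 0.81 with an adjusted p of 2.56e-05. BBC3 (ENSG00000105327.17) spans chr19:47220822-47232766 on the minus strand, and its longest transcript has a GC content of 69.7%, the highest among the members. With the trend of each library with transcript length and GC content removed, its log2 fold change was 0.58 (limma adjusted p = 0.0124). Without both libraries numbered 3 it was 0.75 (limma adjusted p = 0.000402).

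BCL2L11 encodes BIM, a BH3-only protein that responds to loss of growth factor and kinase signals. Its counts were 1411, 1270 and 1298 in CD104high and 1002, 1106 and 1151 in CD104low replicates 1 to 3. The groups did not overlap, and CD104high was higher in 3 of 3 numbered pairs. The means were 1326 ± 74.8 and 1086 ± 76.4 (SD, n = 3), with a log2 fold change of 0.29 (SE 0.09, limma adjusted p = 0.0468). This call was close to the threshold. It ended without CD104high replicate 1 (log2 fold change 0.24, limma adjusted p = 0.16), 2 (0.32, 0.0858) or 3 (0.30, 0.0873), without CD104low replicate 1 (0.23, 0.109) or 2 (0.30, 0.0926), without both libraries numbered 3 (0.35, 0.0508), and with no mean-variance trend in limma (0.0726). The authors' deposited table lists an adjusted p of 0.0189 for BCL2L11. The gene (ENSG00000153094.23) spans chr2:111119378-111168447 on the plus strand. MIR4435-2HG, a long noncoding RNA gene, overlaps it on the other strand, and the strand setting of the counting is not given in the sources used here. The CD104high mean of MIR4435-2HG itself was 5214 ± 301, and its CD104low mean 5219 ± 73.5.

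PMAIP1, the gene of NOXA, which binds MCL1, had 3255, 3151 and 3965 in CD104high and 3557, 2646 and 2957 in CD104low replicates 1 to 3. The groups overlapped, CD104high was higher in 2 of 3 pairs, and the fold change of 1.13 had an interval of 0.94 to 1.37 (limma adjusted p = 0.303). BID, which links death receptors to mitochondria once caspase-8 has cut it, had 1559, 1696 and 1501 in CD104high. In CD104low it had 2266, 1709 and 1603, with replicate 1 well above the other two. BID was lower in 3 of 3 pairs, yet the groups overlapped and it did not pass (log2 fold change -0.21, SE 0.12, limma adjusted p = 0.243). BIK, a BH3-only protein of the endoplasmic reticulum, was scarce, with recovered reads between 24 and 62 per library. Its reads in CD104low replicates 1 to 3 were 62, 24 and 39. The fold change of BIK, 1.28, had an interval from 0.74 to 2.19, wide enough to hold the rise measured for BBC3, and no difference was detected.

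Of the guardian genes, BCL2 had 644, 702 and 706 in CD104high and 804, 1056 and 937 in CD104low replicates 1 to 3. Every CD104high library was below every CD104low library. The means were 684 ± 34.5 and 932 ± 126 (SD, n = 3), and BCL2 fell by 0.44 on the log2 scale (SE 0.12, limma adjusted p = 0.0237). The call ended without CD104high replicate 1 (log2 fold change -0.40, limma adjusted p = 0.0916) or 2 (-0.46, 0.0612), without CD104low replicate 2 (-0.34, 0.0884), and with no mean-variance trend in limma (adjusted p = 0.0554). It held without both libraries numbered 3 (-0.45, limma adjusted p = 0.0285). The authors' deposited table lists BCL2 at -0.45 with an adjusted p of 0.00107. BCL2 (ENSG00000171791.13) spans chr18:63123346-63320128 on the minus strand.

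BCL2L1, whose main product is BCL-XL, had between 18024 and 19360 in CD104high and between 17512 and 18550 in CD104low. It had a log2 fold change of 0.05 (limma adjusted p = 0.627), with a fold interval of 0.94 to 1.14. MCL1, a guardian that is made and degraded quickly, had 14189, 15538 and 13766 in CD104high and 14139, 15504 and 13385 in CD104low replicates 1 to 3. Both replicates numbered 2 were the highest of their group, and same-numbered libraries lay closer together than libraries of the same group. The fold interval for MCL1 was 0.90 to 1.14 (limma adjusted p = 0.901). For both genes the intervals leave out changes as large as that fitted for BBC3. The antisense gene ABALON overlaps BCL2L1, and ADAMTSL4-AS1 overlaps MCL1. Their means were at most 374 and 41.0, small beside those of BCL2L1 and MCL1.

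Neither effector gene passed the test. BAX had 6383, 6292 and 6139 in CD104high and 7279, 6721 and 6791 in CD104low replicates 1 to 3, with no overlap. Its log2 fold change of -0.14 (SE 0.06) had a limma adjusted p of 0.13, and passed after removal of the length and GC trend (-0.16, limma adjusted p = 0.0499). BAK1 had 3627, 3503 and 3429 in CD104high and 4424, 4065 and 3552 in CD104low libraries, where replicate 3 lay within the CD104high range. BAK1 had a log2 fold change of -0.18 (SE 0.09, limma adjusted p = 0.15), and passed as lower without CD104low replicate 3 (-0.27, limma adjusted p = 0.0376). Both genes were lower in 3 of 3 numbered pairs.

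**Figure D2:**
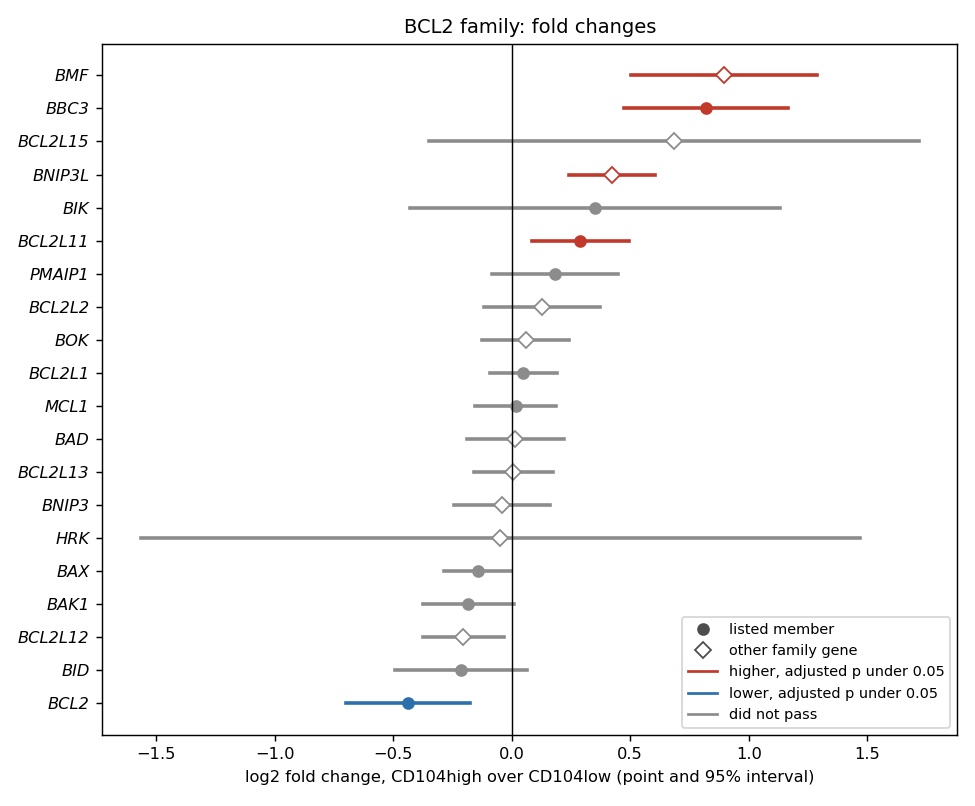
Log2 fold change of CD104high over CD104low (point) with its 95% interval from limma (line) for the 10 members (filled circles) and 10 other family genes (open diamonds), coloured by call. BMF, BBC3, BNIP3L and BCL2L11 passed as higher and BCL2 as lower; HRK, BCL2L15 and BIK have the widest intervals.

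Levels of different genes were compared per kilobase of annotated exon, a scale that depends on how much of the annotation these cells use. BCL2L1 was highest, between 5284 and 5842 normalised reads per kilobase over the 6 libraries, followed by MCL1 (3062 to 3555) and BAX (2373 to 2814). These 3 did not overlap each other. BAK1 (1550 to 2000) and PMAIP1 (1184 to 1774) overlapped. Below them came BID (338 to 510), BBC3 (182 to 450) and BCL2L11 (151 to 212), where BBC3 overlapped both BID and BCL2L11. BCL2 (54.8 to 89.7) and BIK (24.8 to 63.1) were lowest and overlapped.

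**Figure D3:**
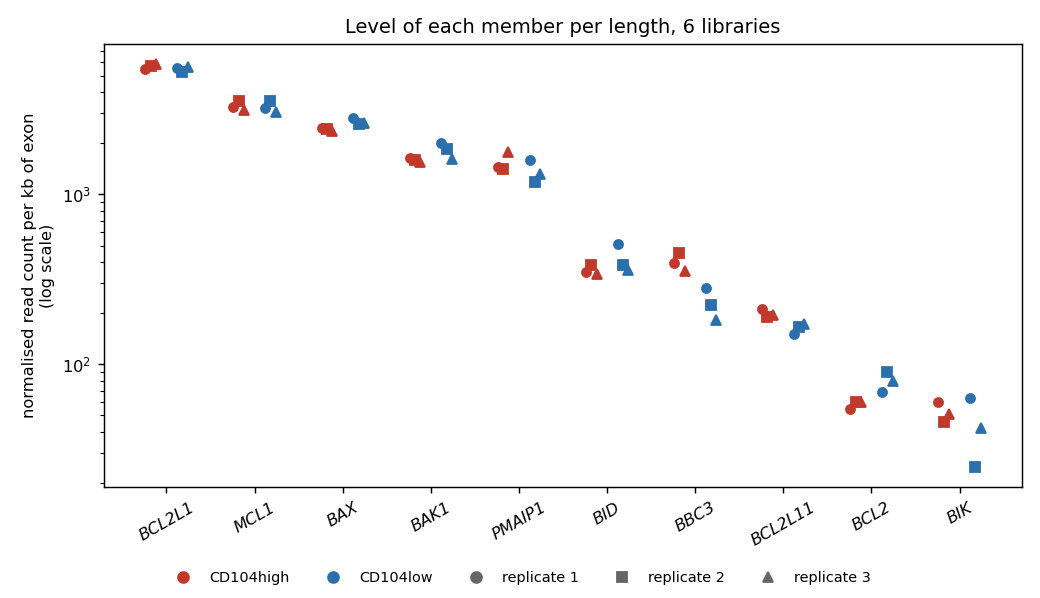
Normalised read count per kilobase of exon (log axis) of the 10 members, ordered by level, in each CD104high (red) and CD104low (blue) library. BCL2L1 and MCL1 stand at the top in all 6 libraries, and BCL2 and BIK at the bottom.

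Of the members' summed per-kilobase level, the 3 guardian genes made up between 54.5% and 59.0% in each library. The effectors BAX and BAK1 made up between 25.0% and 26.8% in CD104high and between 28.1% and 29.6% in CD104low libraries, which did not overlap. The BH3-only genes together made up between 15.7% and 17.3% in CD104high and between 12.9% and 15.9% in CD104low, which overlapped. These shares were not tested. BBC3 alone made up between 2.25% and 2.84% in CD104high and between 1.21% and 1.72% in CD104low. BCL2 made up at most 0.585% in any library. Per kilobase, BBC3 stood at 7.21, 7.55 and 5.88 times BCL2 in CD104high replicates 1 to 3 and at 4.09, 2.49 and 2.28 times in CD104low. These ratios restate the 2 called differences and were not tested.

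The promoters of BBC3 and BCL2L11 are shown because both genes were higher in CD104high cells. The windows hold the 250 bases before a RefSeq start site on GRCh38.p14, and 8 of the 10 members had such a sequence. Only 1 start site of each gene is shown. By the GENCODE gene spans given above, the BCL2L11 window lies inside the gene and the BBC3 window partly inside. Both strands were searched for 6 motifs, and capitals mark every match. Of 35116 windows of this length, 1.65% held the cAMP response element TGACGTCA and 21.2% its core TGACG, which lies within it. The FOXO motif GTAAACA was in 2.98%, the GC box GGGCGG in 42.6%, the E-box CACGTG in 6.34% and the TATA motif TATAAA in 10.7%. The BBC3 window held 1 E-box and none of the other motifs. E-boxes also lay in the window of BAX (4), which did not pass the test, and in some windows of BID. The windows of BAK1, BCL2, BCL2L1 and PMAIP1 held no E-box. The BCL2L11 window held 1 FOXO motif and 3 GC boxes. GC boxes also lay in the windows of PMAIP1 (4), BAK1 (2) and BAX (1) and in some windows of BID, genes that did not pass the test. Those of BCL2 and BCL2L1 held no GC box. A match describes letters only and shows no binding.
BBC3 promoter window, chr19:47232668-47232917, minus strand: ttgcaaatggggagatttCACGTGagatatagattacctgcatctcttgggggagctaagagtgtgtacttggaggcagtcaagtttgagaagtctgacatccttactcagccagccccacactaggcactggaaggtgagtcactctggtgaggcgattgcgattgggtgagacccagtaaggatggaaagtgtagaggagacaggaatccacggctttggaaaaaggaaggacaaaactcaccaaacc
BCL2L11 promoter window, chr2:111120664-111120913, plus strand: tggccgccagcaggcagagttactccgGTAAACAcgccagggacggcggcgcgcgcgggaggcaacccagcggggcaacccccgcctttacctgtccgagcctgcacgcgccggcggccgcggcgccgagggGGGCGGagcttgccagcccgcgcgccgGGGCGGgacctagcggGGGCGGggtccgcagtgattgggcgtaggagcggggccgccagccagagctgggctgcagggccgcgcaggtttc

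Of 13 other family genes, 10 were in the table and tested. BMF and BNIP3L passed as higher, the other 8 did not pass in limma, and the median log2 fold change was 0.04. BMF, a BH3-only relative of BIM tied to the cytoskeleton, had 258, 220 and 185 in CD104high and 118, 118 and 115 in CD104low replicates 1 to 3, with no overlap. It was 1.86-fold higher (log2 fold change 0.90, SE 0.18, limma adjusted p = 0.00611). BNIP3L, a mitophagy receptor with an atypical BH3 domain, was 1.34-fold higher, at 7813 ± 722 against 5824 ± 329 (SD, n = 3, limma adjusted p = 0.00576). BMF and BNIP3L held their calls under all 17 alternatives run.

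The 8 other family genes gave smaller or less certain differences. BCL2L12, an atypical member, had 3772 ± 326 against 4336 ± 81.7, with no overlap (log2 fold change -0.20, SE 0.08, limma adjusted p = 0.0802). It passed as lower without CD104high replicate 3 (-0.27, limma adjusted p = 0.0403) and with the length and GC trend removed (-0.25, limma adjusted p = 0.0302). The authors' deposited table lists BCL2L12 at -0.20 with an adjusted p of 0.0428, under the threshold of 0.05. The guardian gene BCL2L2 had a log2 fold change of 0.13, the effector relative BOK 0.06, the BH3-only gene BAD 0.02, BCL2L13 0.01 and the mitophagy receptor gene BNIP3 -0.04. The fold intervals of these 5 lay between 0.84 and 1.29. BCL2L15 and the BH3-only gene HRK were scarce, with means of at most 33.0 and 9.77, and their intervals spanned 0.79-fold to 3.29-fold and 0.34-fold to 2.77-fold. BCL2A1, BCL2L10 and BCL2L14 were not analysed here.

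Around the family, 65 further genes of apoptosis were tested in 5 lists, the 10 family genes above among them, and 10 passed as higher and 11 as lower. Over all 14343 genes tested, 12.1% were called higher and 11.3% lower, with a median log2 fold change of 0.01, and the counts of each list stand beside these shares as descriptions, with nothing particular to a list read from them. With the replicate number as a block, a fit that called 17.4% of all genes higher and 15.4% lower, 11 of the 65 were higher and 13 lower. Of 14 genes of partners and protein turnover, 1 was higher and 5 lower, with a median log2 fold change of -0.17. BAG1, a co-chaperone found as a partner of BCL2, was 1.58-fold higher, at 11084 ± 1039 against 7075 ± 1097 (SD, n = 3, limma adjusted p = 0.00342). VDAC1, a pore of the outer mitochondrial membrane, was 1.21-fold lower, at 15020 ± 174 against 18142 ± 502 (limma adjusted p = 0.0104). Its relatives VDAC2, which holds BAK at mitochondria, and VDAC3 were 1.15-fold and 1.22-fold lower. MTCH2, a receptor for cut BID, was 1.15-fold lower, and DYNLL1, a dynein light chain that binds BIM, 1.25-fold lower. The calls of BAG1 and VDAC1 held without any 1 library, and the other 4 did not. The call of VDAC2 ended without any 1 of CD104high replicates 1 to 3 or CD104low replicates 2 and 3 (limma adjusted p = 0.0693 to 0.126), and that of MTCH2 without the same 5 libraries (0.068 to 0.114). VDAC3 lost its call without CD104high replicate 1 or 2 or any CD104low replicate (0.0621 to 0.158), and DYNLL1 without CD104high replicate 1 (0.0805) or 2 (0.0688). With the length and GC trend removed, VDAC2, VDAC3 and MTCH2 did not pass either (limma adjusted p = 0.117, 0.0986 and 0.113), nor with total-read scaling (0.0522, 0.0558 and 0.0546). Without both libraries numbered 3, VDAC2 (0.12) and MTCH2 (0.174) did not pass. With no mean-variance trend in limma, VDAC2 (0.0863), VDAC3 (0.122), MTCH2 (0.0771) and DYNLL1 (0.0746) did not pass. MARCHF5, a ubiquitin ligase of the outer mitochondrial membrane, had a log2 fold change of -0.20 (limma adjusted p = 0.0662) and passed as lower with the block (0.0361). For MARCHF5 the authors' deposited table lists an adjusted p of 0.0134, under the threshold of 0.05.

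Downstream of the pore, 1 of 16 genes of the apoptosome, the caspases and their inhibitors was higher and 3 were lower, with a median log2 fold change of 0.01. CYCS, the gene of cytochrome c, was 1.35-fold lower, at 8690 ± 1461 against 11702 ± 1488, although its groups overlapped (limma adjusted p = 0.0302). The 2 inhibitor genes BIRC2 and BIRC3, which lie side by side and encode cIAP1 and cIAP2, parted. BIRC2 was 1.27-fold lower (8197 ± 502 against 10390 ± 568, limma adjusted p = 0.00837) and BIRC3 1.39-fold higher (1353 ± 220 against 963 ± 61.4, limma adjusted p = 0.0211). The call of BIRC2 held without any 1 library. The call of CYCS ended without CD104high replicate 1 or 2 or CD104low replicate 1 or 3 (limma adjusted p = 0.0696 to 0.124). That of BIRC3 ended without CD104high replicate 1 or 3 or CD104low replicate 1 or 2 (0.0559 to 0.0871). With no mean-variance trend in limma, CYCS (0.109) and BIRC3 (0.0671) did not pass. APAF1, CASP9 and XIAP did not pass, with log2 fold changes of 0.09, 0.11 and 0.16. BIRC5, the gene of survivin, had a log2 fold change of -0.27 (limma adjusted p = 0.0583) and passed as lower with the replicate block (0.0257). CYCS has processed pseudogenes that can share its reads.

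In the death receptor pathway, which feeds into the family through BID, 3 of 13 genes were higher and 2 lower, with a median log2 fold change of 0.05. TNFSF10, the ligand TRAIL, was 2.09-fold higher, at 912 ± 62.0 against 438 ± 63.7 (log2 fold change 1.07, SE 0.13, limma adjusted p = 0.000627). CFLAR, the caspase-8 inhibitor FLIP, was 1.33-fold higher, at 5266 ± 144 against 3970 ± 281 (limma adjusted p = 0.00378). The adaptor gene TRADD was 1.37-fold higher (limma adjusted p = 0.0122, and 0.0549 without CD104high replicate 1). The TRAIL receptor gene TNFRSF10A was 1.37-fold lower (1034 ± 78.5 against 1413 ± 50.9, limma adjusted p = 0.00651). The decoy receptor gene TNFRSF10D was 1.47-fold lower (1334 ± 120 against 1970 ± 201, limma adjusted p = 0.00433). TNFRSF10B, the other death-signalling TRAIL receptor, did not pass (log2 fold change -0.13, limma adjusted p = 0.195). These receptor genes are neighbouring paralogs, so how reads were split among them is uncertain.

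Of 12 transcription factors known to act on BH3-only genes, 3 were higher and 1 lower, with a median log2 fold change of 0.21. IRF1 was 1.60-fold higher (1669 ± 249 against 1039 ± 126, limma adjusted p = 0.00442), TP73 1.57-fold (597 ± 55.7 against 381 ± 57.6, limma adjusted p = 0.0102) and HIF1A 1.35-fold (24794 ± 1871 against 18431 ± 1408, limma adjusted p = 0.00526). The call of TP73 ended without CD104high replicate 1 (limma adjusted p = 0.0538). ATF3, a stress-induced factor, was 2.03-fold lower, at 123 ± 18.9 against 263 ± 104 (limma adjusted p = 0.0278). Its call ended without CD104high replicate 1 or 2 or CD104low replicate 1 or 3 (0.0532 to 0.0953), and with no mean-variance trend in limma (0.0833). Of the FOXO genes, FOXO4 had 303 ± 61.8 against 202 ± 49.1, with overlapping groups (log2 fold change 0.59, SE 0.21, limma adjusted p = 0.0707). FOXO4 passed as higher with the replicate block (0.00877), and the authors' deposited table lists an adjusted p of 0.0145 for it. FOXO3 did not pass (log2 fold change 0.14, limma adjusted p = 0.182), nor did FOXO1 (0.28, 0.626). Of the 12 factors, 9 had a log2 fold change above 0 and 3 below.

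**Figure D4:**
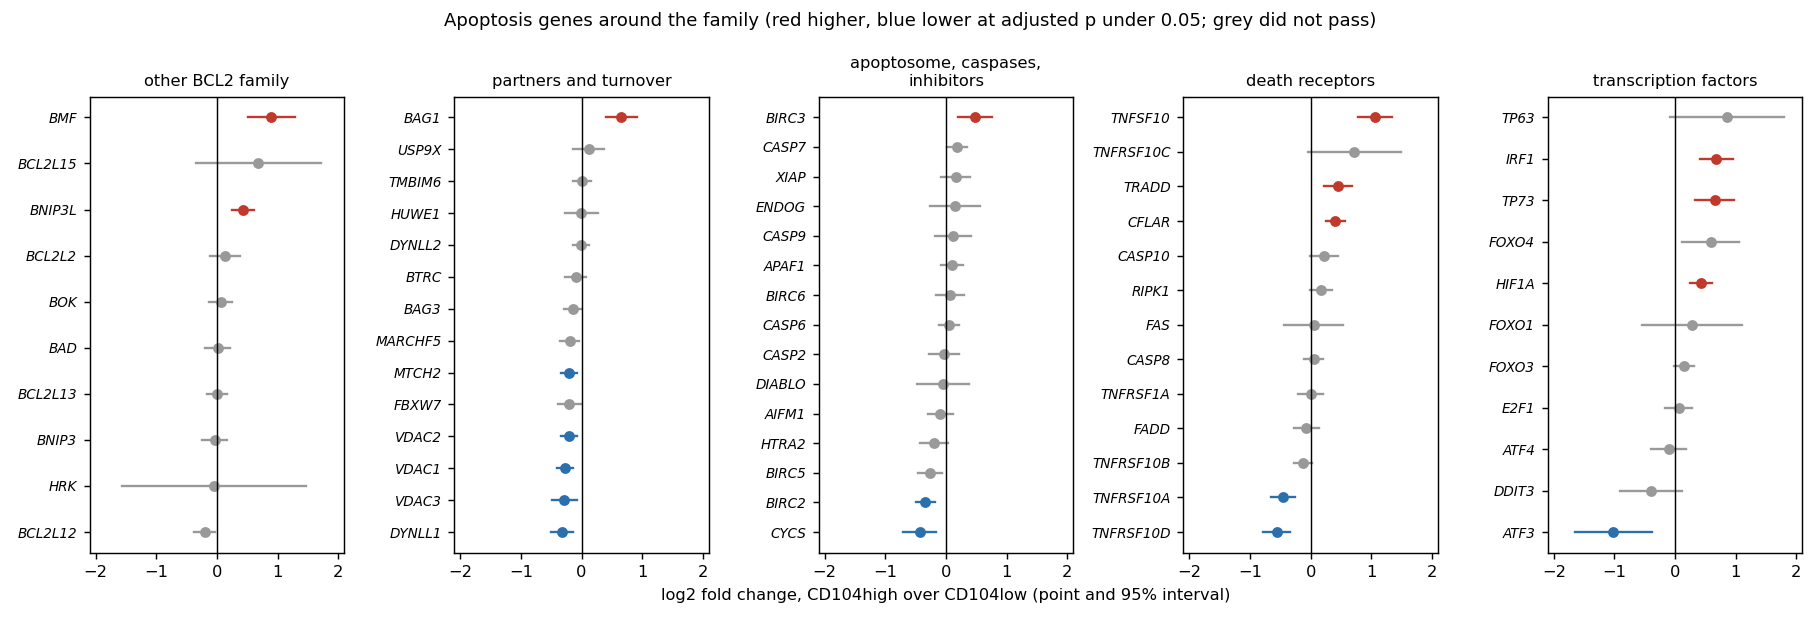
Log2 fold change of CD104high over CD104low with 95% intervals from limma for tested genes of 5 lists, 1 panel a list, coloured by call. TNFSF10 is the highest called gene at 1.07 and ATF3 the lowest at -1.02. Calls in both directions occur in 4 of the 5 lists, the list of other family genes being the exception.

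Recovered reads ranged from 52088604 to 56958065 per library. The sort marker ITGB4 was 5.83-fold higher in CD104high. The keratin gene KRT19, listed as a marker of the line, was 1.32-fold higher (limma adjusted p = 0.00194). EPCAM had a log2 fold change of 0.09, VIM of 0.07 and CD44 of -0.16, none of which passed. Of 8 markers of blood, endothelial and fibroblast cells, 3 were in the table, and their summed count was between 7.94 and 17.8 in CD104high and between 7.21 and 16.7 in CD104low. Libraries numbered 3 stood apart on the second principal component (26.0% of the variance). Summed counts of 11 immediate-early and sort stress genes ran from 15504 to 18247 in CD104high and from 18578 to 22053 in CD104low. JUN was the largest term of these sums, at 7395 ± 529 in CD104high and 10409 ± 836 in CD104low. Of the 10 tested, 5 had a log2 fold change above 0 and 5 below, with a median of 0.09. JUN (1.41-fold), DUSP1 (1.88-fold) and IER3 (1.31-fold) were lower (limma adjusted p = 0.0027, 0.00393 and 0.0264). Over all genes tested, 11.3% were called lower. The call of IER3 ended without CD104high replicate 2 or 3 or CD104low replicate 1 (0.0684 to 0.0808), and with no mean-variance trend in limma (0.0822). With the replicate block, FOS and JUNB also passed, as higher (limma adjusted p = 0.0106 and 0.0361). For these 2 genes the authors' deposited table lists adjusted p of 0.0230 and 0.265. The part of these stress gene differences in the values of BBC3, BCL2L11, BMF and BCL2 was not tested.

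**Figure D5:**
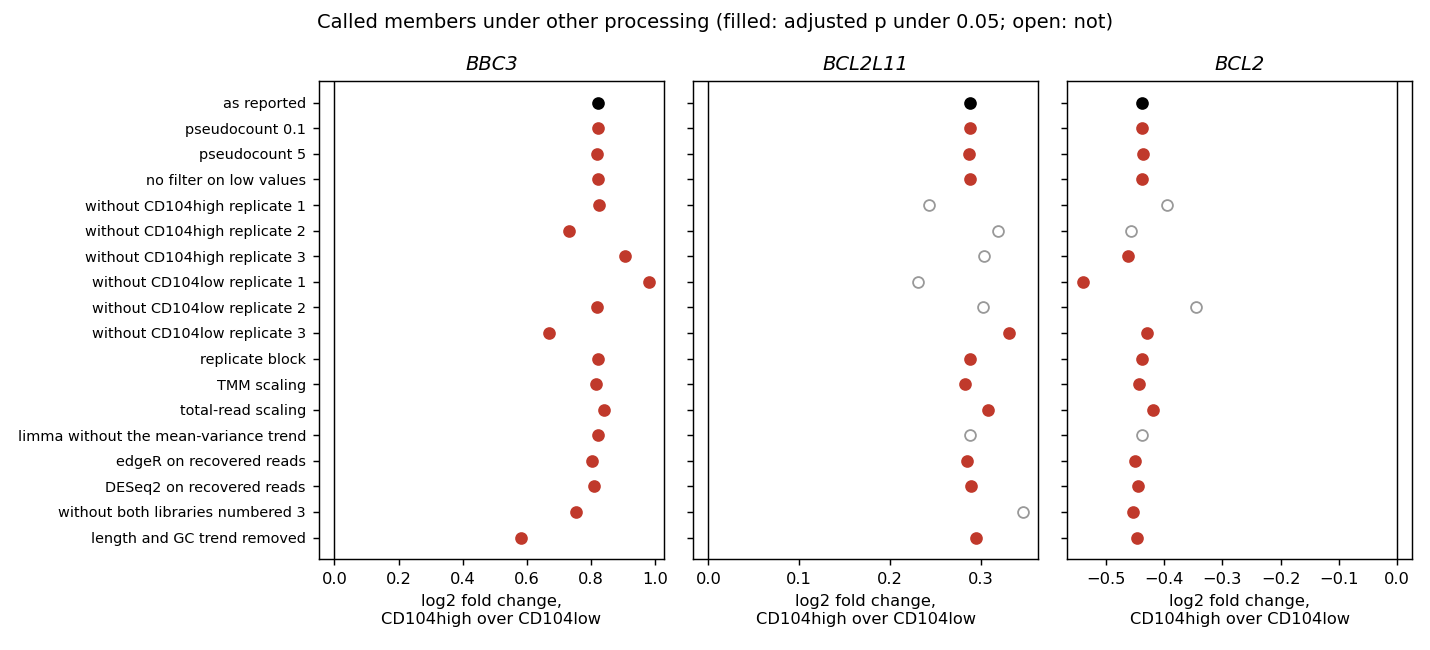
Log2 fold change of CD104high over CD104low for BBC3, BCL2L11 and BCL2 as reported (black) and under 17 other ways of processing, filled where the adjusted p was under 0.05 and open where it was not. BBC3 stayed past the threshold in 17 of 17, BCL2 in 13 and BCL2L11 in 10, and all values kept their sign.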

How the data were processed

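RNA of 3 CD104high and 3 CD104low libraries was analysed from 1 deposited table. The submitters' processing notes list DESeq2 1.30.1, featureCounts 1.5.0, STAR 2.4.0 and FastQC, and the builds hg38 and GRCh38.p13, with no roles. No strand setting or filter is given in the sources used here. The per-library values are a signal that the authors made by dividing gene read counts by 1 size factor per library. The authors also deposited log2 fold changes, their standard errors, p-values, adjusted p-values and, as a score, the test statistic.

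Genes reaching 10 in 3 or more libraries were kept (14343, with 681 removed). Their log2(value + 1) was tested in R 4.3.3 by limma 3.58.1, mean-variance trend included, with Benjamini-Hochberg adjustment over all of them. SDs are over 3 libraries; labels do not say whether replicates were separate cultures or sorts, so p-values measure only the spread among these libraries, which may be technical. Whole reads were recovered from the size of 1 read in each library, for edgeR 4.0.16 and DESeq2 1.42.0. In each library, 99.96% or more of the values came within 0.1 of whole. The size of 1 read was between 0.970 and 1.03 in the 6 libraries, and recovered reads are less certain where it is near 1. Both tools were therefore used as alternatives only. Scripts were tested on simulated data.

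Exon lengths, spans and transcripts are from GENCODE 29 (GRCh38), matched without version for 14994 of 15024 genes. For the coding stretches, a coding transcript tagged principal was used. Promoters are from RefSeq (GRCh38.p14).

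The members and lists were chosen with earlier results of these data known. All members and other family genes were named, and from each further list the called genes, up to 6 with the smallest p. Values of APAF1, CASP9, XIAP, TNFRSF10B, FOXO1, FOXO3, FOXO4, BIRC5, MARCHF5, FOS, JUNB and EPCAM were added after they were seen. Some listed genes enter the counts and are not reported singly here. The 13 mitochondrially encoded genes listed for a quality check were not analysed here. Deviations of same-numbered libraries from their group means correlated across genes at 0.17, 0.32 and 0.48. These values were not compared with correlations between differently numbered libraries. A shift confined to the highest-numbered libraries can also make them positive, so they cannot decide whether the numbers pair the samples. The test was unpaired, as planned, and the block is an alternative.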

Additional observations from a re-analysis of the deposited data

How the results depend on the processing

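Fold changes kept their sign for BBC3, BCL2L11, BCL2, BAX, BAK1, BID, BCL2L1, PMAIP1 and BIK under all 17 alternatives, and MCL1, near 0, changed sign in 2 of them. Leaving out each library in turn gave 1 to 2 members higher, 0 to 2 lower, 1017 to 1766 genes higher, 799 to 1547 lower, 7 to 11 pathway genes higher and 4 to 10 lower, with fewer samples in each fit. In limma without the mean-variance trend, 1 member was higher and 0 lower (2 and 1 at an unadjusted p under 0.05; 2 higher and 1 lower in both edgeR and DESeq2), with 936 genes lower over the table and 4 lower in the pathway lists; the cause was not tested. At an adjusted p threshold of 0.01, limma gave 1 member higher and 0 lower (2 and 2 at an unadjusted p under 0.05), 826 genes higher and 610 lower, and 3 pathway genes lower. In 2 alternatives chosen after seeing the data, 1 member was higher without both libraries numbered 3, and 2 were lower, BCL2 and BAX, with the length and GC trend removed. With the replicate number as a block, 2 members were higher and 1 lower, and no member's call changed (BBC3 0.82, limma adjusted p = 0.000599). In the pathway lists the block gave 11 genes higher and 13 lower, against 10 and 11, adding FOXO4 as higher and MARCHF5 and BIRC5 as lower. BIK, HRK and BCL2L15 were scarce in both groups and had wide intervals. The parts of depth and of spread among replicates in these intervals were not tested.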
